A study of Mus musculus with 60 samples.

Results

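CD8 T cells that lacked both STAT3 and PD-1 were compared with CD8 T cells that lacked STAT3 alone, by the T cell receptor (TCR) chains that they carried in liver and gut of mice in a transplant model of acute graft-versus-host disease (GVHD). The 16 libraries are every liver and gut library of the 2 genotypes in the CD8 TCR alpha (TCRA) and CD8 TCR beta (TCRB) tables, out of 60 libraries in the series, with 4 STAT3koPD-1ko and 4 STAT3ko libraries for each chain. Donors of the STAT3ko group were C57BL/6 mice with floxed Stat3 and a CD4-Cre transgene, which deletes Stat3 in T cells of both the CD4 and the CD8 lineage because developing thymocytes pass through a stage that expresses CD4. Donors of the STAT3koPD-1ko group carried the same alleles and were also PD-1-/-, a germline deletion, so that by design the T cells of both groups lacked STAT3 and the groups differed in PD-1. Recipients were lethally irradiated wild-type (WT) BALB/c mice, given 1000000 CD90.2+ donor T cells with 5000000 T cell-depleted bone marrow cells of WT C57BL/6 mice. Donor CD8 T cells were sorted as H-2Kb+TCRβ+CD8+ on day 6 after this hematopoietic cell transplantation (HCT), and lymphocytes of 3 recipients were pooled for each library. For each chain, 4 liver and gut libraries of WT C57BL/6 donors and 1 spleen library per genotype taken before HCT are given beside them, and the WT liver and gut libraries also entered the fits and the listing rule for public clonotypes. The 2 libraries of a genotype and tissue are called liver 1 and liver 2 or gut 1 and gut 2, by the number in their labels. Nothing in the labels says that the same number marks the same pool of mice, and the methods name 2 batches without tying them to libraries. Whether the recipients of a library had GVHD is not in the tables used here.

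A TCR is a pair of an alpha and a beta chain. Each chain is made in the thymus by joining 1 variable (V) and 1 joining (J) segment, with a diversity (D) segment between them in the beta chain, and the enzymes of the joint trim the ends and add bases that no segment encodes. The complementarity determining region 3 (CDR3) spans this joint and touches the peptide that a major histocompatibility complex (MHC) molecule presents. In GVHD after an MHC-mismatched transplant, donor T cells respond to recipient MHC, and clones that respond expand. PD-1 is an inhibitory receptor that activated T cells express, and STAT3 is a transcription factor downstream of cytokines such as IL-6. Each combination of a V segment, a J segment and a translated CDR3 counts as 1 clonotype, and its level is its percent of the frequency listed in a library.

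The sequences on which the largest differences turned are given first. The TRBJ1-5 segment, whose share differed most among the beta J segments, lies at chr6:41535084-41535133 on the plus strand (GENCODE M21, GRCm38/mm10). The 22 bases in capitals are those that can enter the CDR3, and they end with the codon of its closing phenylalanine.
TRBJ1-5 germline: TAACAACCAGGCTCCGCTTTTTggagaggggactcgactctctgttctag
TRBJ1-5 was most often joined to TRBV29 (chr6:41271394-41271881, plus strand). The most frequent TRBV29 TRBJ1-5 clonotype of each library is printed below by its CDR3 bases, to show how the same 2 segments gave different receptors. Each clonotype has a single representative base sequence for all libraries, so these bases need not be those read in the library named. Lower case letters match germline bases from the end of the V or the start of the J segment, and capitals mark the 6 to 12 bases found in neither.
TRBV29 TRBJ1-5, STAT3ko liver 1: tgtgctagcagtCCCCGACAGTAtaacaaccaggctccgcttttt
TRBV29 TRBJ1-5, STAT3ko liver 2: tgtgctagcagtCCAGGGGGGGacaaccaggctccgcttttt
TRBV29 TRBJ1-5, STAT3ko gut 1: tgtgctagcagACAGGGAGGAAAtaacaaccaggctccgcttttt
TRBV29 TRBJ1-5, STAT3ko gut 2: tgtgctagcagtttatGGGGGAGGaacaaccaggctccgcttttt
TRBV29 TRBJ1-5, STAT3koPD-1ko liver 1: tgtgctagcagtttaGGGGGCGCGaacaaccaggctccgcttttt
TRBV29 TRBJ1-5, STAT3koPD-1ko liver 2: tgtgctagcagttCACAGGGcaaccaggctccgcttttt
TRBV29 TRBJ1-5, STAT3koPD-1ko gut 1: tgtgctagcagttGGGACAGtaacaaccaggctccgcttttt
TRBV29 TRBJ1-5, STAT3koPD-1ko gut 2: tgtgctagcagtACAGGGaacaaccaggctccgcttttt

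The alpha clonotypes with the lowest p between the genotypes, and the alpha clonotypes with the highest means over the 8 libraries, are printed in the same way because their germline content differs. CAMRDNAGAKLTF joins TRAV6-3 (chr14:53428711-53430377) to TRAJ39 (chr14:54179962-54180024), and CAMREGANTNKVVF joins TRAV16N (chr14:53351028-53351621) to TRAJ34 (chr14:54184699-54184756), all on the plus strand. The remaining sequences are 3 clonotypes of TRAV16N and TRAJ22, told apart below by their 0, 1 or 5 bases outside the germline segments. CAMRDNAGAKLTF held 0 such bases and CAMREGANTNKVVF held 2.
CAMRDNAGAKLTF TRAV6-3 TRAJ39: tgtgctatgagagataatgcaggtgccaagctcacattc
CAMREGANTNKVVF TRAV16N TRAJ34: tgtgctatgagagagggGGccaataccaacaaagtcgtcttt
TRAV16N TRAJ22 with 5 bases outside germline: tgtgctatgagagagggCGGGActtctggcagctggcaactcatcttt
TRAV16N TRAJ22 with 0 bases outside germline: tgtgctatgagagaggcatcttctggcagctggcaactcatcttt
TRAV16N TRAJ22 with 1 base outside germline: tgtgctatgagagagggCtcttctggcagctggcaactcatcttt

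The tables list 59365 alpha and 82447 beta clonotypes, and the 8 libraries of a table held 10581 to 23961 of the alpha and 8391 to 27168 of the beta clonotypes. Only clonotypes found in at least 2 libraries of the authors' join are listed. The listed clonotypes made up 90.8% to 97.9% of the alpha frequency in 6 libraries and 79.9% to 80.1% in both gut 2 libraries, and for beta 81.5% to 96.3% and 53.2% to 58.0%. The gut 2 libraries thus stood apart in both genotypes. Among the rest, STAT3koPD-1ko gut 1 had the lowest listed share, at 90.8% for alpha and 81.5% for beta, against 95.8% and 91.8% in STAT3ko gut 1. Read numbers are not in the tables, so the depth is unknown and a clonotype without a value is said to be listed at 0. The tables hold no gene expression, so the loss of STAT3 and PD-1 and the CD8 gate could not be checked directly. TRBV26 and TRBV23, V segments used here to check the labels, made up 0.838% to 2.01% and 0.0479% to 0.555% of the CD8 beta frequency, and 7.12% to 28.0% and 3.05% to 13.7% of the CD4 beta frequency of the same groups. The invariant natural killer T cell rearrangement TRAV11 TRAJ18 was at 0.00168% to 0.0666% in STAT3koPD-1ko and 0.000840% to 0.00585% in STAT3ko, and TRAV1 TRAJ33 of mucosal-associated invariant T cells at 0.0192% to 0.0597% and 0% to 0.0360%.

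The libraries of a genotype were not independent of each other. The listed beta frequency shared by gut 1 with liver 1 and with liver 2 was 27.5% to 32.3% and 32.0% to 39.3% within a genotype, and 9.88% to 11.8% and 11.7% to 12.9% between the genotypes. Liver 1 shared 41.3% to 55.9% of its beta frequency with the spleen library taken before HCT from the same genotype, and 6.85% to 7.38% with that of the other genotype. By contrast, liver 1 and liver 2 shared 8.16% to 11.8% within a genotype and 8.90% to 10.2% between them, and gut 2 shared 9.67% to 14.7% and 11.2% to 13.1% with the livers. The alpha chain gave the same order, for example 46.6% to 58.6% against 18.6% to 19.5% for liver 1 and spleen. Results that rest on gut 1 are therefore also given without the gut 1 libraries where that ends or makes a call, and p-values measure the spread between these pools only. The labels do not say whether the liver and gut libraries of a genotype came from the same recipients. Every SD with n = 4 and every p-value here counts the 4 libraries of a genotype as separate samples, so the p-values may be too small if recipients or material were shared.

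More clonotypes were listed in STAT3koPD-1ko than in STAT3ko in all 4 pairs of libraries with the same tissue and number, for both chains. For beta, the STAT3koPD-1ko libraries listed 17037, 20117, 27168 and 10441 clonotypes in liver 1, liver 2, gut 1 and gut 2, and the STAT3ko libraries listed 12413, 15654, 26193 and 8391. For alpha, these were 15034, 16983, 23961 and 11506 against 11502, 13754, 22270 and 10581. In the liver both STAT3koPD-1ko libraries were above both STAT3ko libraries for both chains, whereas in the gut the libraries differed more by number than by genotype. Because depth is unknown, the part that sequencing depth has in these numbers was not tested.

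In the liver the repertoires of both chains were more diverse in STAT3koPD-1ko than in STAT3ko by every measure used here, whereas in the gut the measures differed. The effective number of clonotypes (e raised to the power of the Shannon entropy) says how many equally frequent clonotypes would give the observed entropy. It rises with the number of clonotypes listed as well as with evenness. The share of the most frequent clonotypes also depends on the number listed, whereas clonality is scaled by it. For beta the effective number was 4523, 5762, 11242 and 2985 in STAT3ko liver 1, liver 2, gut 1 and gut 2, and 7735, 8782, 11558 and 3844 in STAT3koPD-1ko. It was higher in STAT3koPD-1ko in all 4 pairs, by a mean of 0.45 on the log2 scale, but the groups overlapped (exact permutation test within tissue, two-sided, p = 0.389). For alpha it was 4031, 4934, 8668 and 4014 in STAT3ko and 6301, 6860, 7868 and 3982 in STAT3koPD-1ko, with a mean log2 difference of 0.24 (exact permutation p = 0.556). Both STAT3koPD-1ko livers were above both STAT3ko livers for both chains, whereas the gut libraries of the genotypes overlapped. Without STAT3ko gut 2 the mean log2 differences turned to -0.03 for beta and -0.04 for alpha, and without STAT3ko gut 1 they were 0.92 and 0.52. The alpha difference was -0.0036 without STAT3koPD-1ko gut 1. The design has 36 arrangements of the labels within tissue, so that p cannot go below 0.0556, and none of the 14 single values tested passed after adjustment.

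Clonality, which runs from 0 for an even repertoire to 1 for a repertoire of 1 clone, showed the split between tissues most clearly for the alpha chain. In the liver it was 0.112 and 0.108 in STAT3ko and 0.0904 and 0.0931 in STAT3koPD-1ko. In the gut it was 0.0943 and 0.105 in STAT3ko and 0.110 and 0.113 in STAT3koPD-1ko. Each STAT3koPD-1ko liver library was thus below and each STAT3koPD-1ko gut library above both STAT3ko libraries of its tissue, and the genotype difference was 0.0307 larger in gut than in liver (exact permutation p = 0.0556, the smallest that the design allows; adjusted p = 0.389 over the 14 values). Beta clonality was 0.107 and 0.103 in STAT3ko liver and 0.0810 and 0.0836 in STAT3koPD-1ko liver. In the gut it was 0.0831 and 0.114 against 0.0837 and 0.108, values that overlapped.

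The 100 most frequent clonotypes followed the same order. They held 15.6% and 14.4% of the alpha frequency in STAT3ko liver and 10.8% and 10.2% in STAT3koPD-1ko liver, but 10.5% and 16.6% in STAT3ko gut and 15.0% and 19.5% in STAT3koPD-1ko gut. For beta these were 13.8% and 12.5% against 7.96% and 7.86% in the liver, and 8.97% and 21% against 12.6% and 20.5% in the gut. In the liver the 2 genotypes did not overlap for either chain. The spleen libraries taken before HCT stood in the order of the livers, with a top 100 share of 18.2% in STAT3ko and 14.2% in STAT3koPD-1ko for alpha and 18.1% and 13.4% for beta. Their clonality was 0.128 and 0.104 for alpha and 0.135 and 0.102 for beta, and their effective number 3157 and 4009 for alpha and 3297 and 4485 for beta. The part of this earlier difference in the liver values was not tested. Each genotype had 1 spleen library, which shared 41.3% to 55.9% of its beta frequency with liver 1 of the genotype. The mean differences over both tissues, -0.399 and -1.83 percentage points, were within the spread of the libraries (exact permutation p = 0.889 and 0.50).

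**Figure D1:**
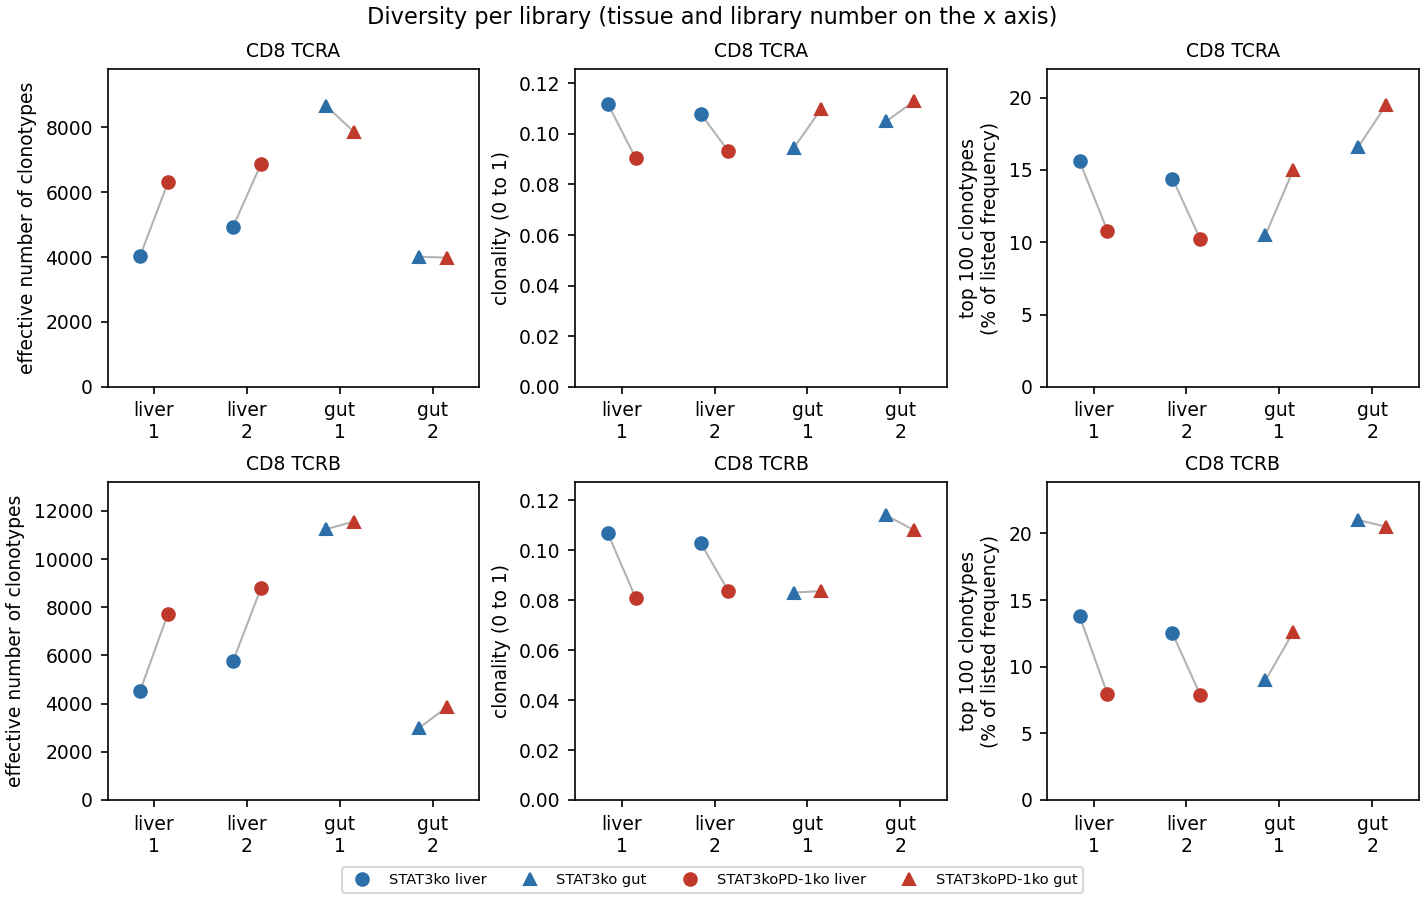
Effective number of clonotypes, clonality and the percent of listed frequency in the 100 most frequent clonotypes (y axes) for each library (x axis: tissue and number), alpha chain above and beta chain below. STAT3ko is blue and STAT3koPD-1ko red, with circles for liver and triangles for gut, and a grey line joins libraries of the same tissue and number. In both livers the red point has the higher effective number and the lower clonality, whereas alpha clonality in gut is higher in red (0.110 and 0.113 against 0.0943 and 0.105).

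Individual clonotypes led the libraries at low shares. The alpha repertoires were led in 5 of 8 libraries by the TRAV16N TRAJ22 clonotypes with 0 and with 1 base outside germline, printed above, and both were listed in all 8 libraries. The clonotype with 0 such bases was at 0.432%, 0.468%, 0.325% and 0.576% in STAT3ko liver 1, liver 2, gut 1 and gut 2, and at 0.284%, 0.277%, 0.182% and 0.455% in STAT3koPD-1ko. It was lower in STAT3koPD-1ko in all 4 pairs, but the groups overlapped and the log2 difference of -0.63 did not pass (SE 0.80, limma adjusted p = 0.851). The clonotype with 1 such base was at 0.450%, 0.464%, 0.339% and 0.270% against 0.247%, 0.249%, 0.160% and 0.273%. The remaining alpha leaders were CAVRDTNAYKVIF (TRAV7N-6 TRAJ30) at 0.513% of STAT3ko liver 2, a clonotype of TRAV16N TRAJ4 at 0.667% of STAT3koPD-1ko gut 1 and a clonotype of TRAV16N TRAJ53 at 0.741% of STAT3koPD-1ko gut 2. The TRAV16N TRAJ4 clonotype was otherwise at 0% to 0.00371% in STAT3koPD-1ko, so its rank came from 1 library.

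The most frequent beta clonotypes ranged from 1 found in a single library to some listed in all 8. The highest share of all was a clonotype of TRBV13-3 TRBJ2-4 at 3.08% of STAT3ko gut 2, which was listed at 0 in the other 7 libraries of both genotypes and at 0.00994% in WT gut 2. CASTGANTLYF (TRBV29 TRBJ2-4) led STAT3ko liver 2 at 0.666%, with 0.0644% in STAT3ko gut 1. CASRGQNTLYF (TRBV29 TRBJ2-4), listed in all 8 libraries, led STAT3ko liver 1 at 0.328%, and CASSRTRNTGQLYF (TRBV14 TRBJ2-2) led STAT3ko gut 1, also at 0.328%. In STAT3koPD-1ko, gut 1 was led by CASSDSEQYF (TRBV13-1 TRBJ2-7) at 0.547%, which was listed in 3 libraries of each genotype, and gut 2 by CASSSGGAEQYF (TRBV29 TRBJ2-7) at 0.878%, listed in 3 STAT3koPD-1ko and 0 STAT3ko libraries. The call YAEQFF (TRBV21 TRBJ2-1), also listed in all 8, led both STAT3koPD-1ko livers at 0.259% and 0.290%, but it lacks the opening cysteine of a CDR3 and its 18 bases lie entirely within germline TRBJ2-1.

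Clonotypes shared by every library held a larger part of the alpha than of the beta repertoire. In all, 35538 alpha clonotypes were listed in any STAT3koPD-1ko library and 31008 in any STAT3ko library, and the 17442 found in both made up 49.1% and 56.2% of them. For beta, 14371 were found in both, 33.6% of 42828 and 39.5% of 36348. The 1248 alpha clonotypes listed in all 8 libraries held 26.4% to 31.3% of a library's frequency, and the 455 such beta clonotypes held 7.61% to 13.2%. The ranges of the genotypes were alike, at 26.4% to 31.3% in STAT3koPD-1ko and 26.7% to 29.8% in STAT3ko for alpha, and 7.61% to 13.2% and 7.75% to 12.8% for beta. Clonotypes listed in all 4 STAT3koPD-1ko libraries and in 0 STAT3ko libraries were few, 145 of 35538 for alpha and 148 of 42828 for beta. The reverse held for 61 of 31008 and 50 of 36348. These counts stand beside the larger number of clonotypes listed in every STAT3koPD-1ko library of a pair.

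Beta clonotypes listed in all 8 libraries included receptors of several V segments. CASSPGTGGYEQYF (TRBV19 TRBJ2-7) averaged 0.15% ± 0.0482 (SD, n = 4) in STAT3koPD-1ko and 0.155% ± 0.113 in STAT3ko. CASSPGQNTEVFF (TRBV29 TRBJ1-1) averaged 0.0997% ± 0.020 and 0.142% ± 0.0334, and a clonotype of TRBV17 TRBJ2-7 0.0845% ± 0.0491 and 0.138% ± 0.101. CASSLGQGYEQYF (TRBV29 TRBJ2-7) averaged 0.228% ± 0.373 and 0.0121% ± 0.00543, with 0.785% in STAT3koPD-1ko gut 2 and at most 0.0826% in the other 7 liver and gut libraries. The shared alpha clonotypes of TRAV14D-1 TRAJ22, TRAV16N TRAJ23 and TRAV3D-3 TRAJ30 averaged 0.20%, 0.171% and 0.177% in STAT3koPD-1ko and 0.132%, 0.160% and 0.149% in STAT3ko. None of these differences passed the test, with limma adjusted p of 0.382 for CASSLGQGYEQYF and 0.889 or more for these 3 alpha clonotypes.

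CDR3 length was nearly the same in both genotypes. The mean alpha CDR3, weighted by frequency, was 13.68, 13.68, 13.61 and 13.56 residues long in STAT3ko liver 1, liver 2, gut 1 and gut 2, and 13.65, 13.66, 13.59 and 13.52 in STAT3koPD-1ko. The mean beta CDR3 was 13.55, 13.50, 13.55 and 13.38 against 13.50, 13.47, 13.50 and 13.27. It was shorter in STAT3koPD-1ko in all 4 pairs for both chains, with mean differences of -0.0245 residues for alpha and -0.0584 for beta (exact permutation p = 0.333 and 0.444). Without STAT3koPD-1ko gut 2 the differences were -0.00889 and -0.000155, and without STAT3koPD-1ko gut 1 they were -0.0401 and -0.117. None of 8 length classes passed in either chain (percent called 0), and 0 had an unadjusted p under 0.05 in either chain.

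Among the length classes, alpha chains of 11 residues made up 5.36% ± 0.266 (SD, n = 4) in STAT3koPD-1ko and 4.77% ± 0.421 in STAT3ko, with a log2 difference of 0.17 (SE 0.08, limma adjusted p = 0.568), and were more frequent in 4 of 4 pairs. Alpha chains of 15 residues made up 17.3% ± 1.08 and 18% ± 1.31 and were less frequent in 4 of 4 pairs (limma adjusted p = 0.733). Alpha chains of 12 residues made up 15.0% and 15.5%. For beta, the classes with the lowest p were 10, 15 and 14 residues, at 1.94%, 17.2% and 30.4% in STAT3koPD-1ko and 1.68%, 18% and 29.8% in STAT3ko (limma adjusted p = 0.744 for each). Beta chains of 16 and 17 residues, at 4.72% and 0.879% against 5.37% and 1.18%, were less frequent in STAT3koPD-1ko in 4 of 4 pairs. They are named after their values were seen.

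**Figure D2:**
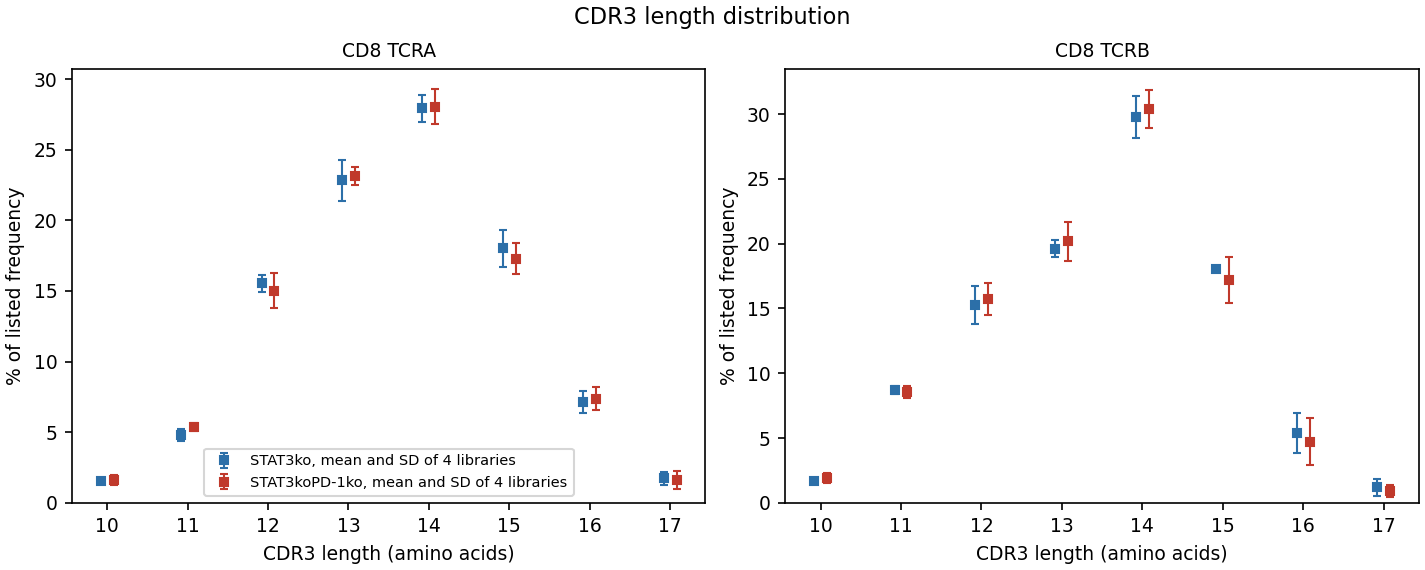
Percent of listed frequency (y axis) in each CDR3 length class in amino acids (x axis) for the alpha chain (left) and the beta chain (right); squares are the means of 4 libraries, STAT3ko in blue and STAT3koPD-1ko in red, with error bars of 1 SD. The genotypes lie within a few percentage points in every class, with 14 residues the most frequent (28.0% and 27.9% for alpha, 30.4% and 29.8% for beta).

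The composition of the centre of the CDR3, after the first 4 and last 4 residues were dropped, also differed little. None of 17 residues tested in either chain passed (percent called 0), and 0 had an unadjusted p under 0.05. In the beta chain, proline made up 3.8% ± 0.0398 (SD, n = 4) of central residues in STAT3koPD-1ko and 3.60% ± 0.197 in STAT3ko, and was higher in 4 of 4 pairs (log2 difference 0.08, limma adjusted p = 0.625). Glutamine made up 5.13% ± 0.101 and 5.38% ± 0.247 and was lower in 4 of 4 pairs (-0.07, limma adjusted p = 0.625), and isoleucine 1.13% and 1.03%. In the alpha chain, alanine made up 7.78% ± 0.278 and 8.06% ± 0.231 and was lower in 4 of 4 pairs (-0.05, limma adjusted p = 0.595), methionine 1.37% and 1.44%, and glutamine 3.90% and 3.79%.

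Grouped by side chain, the alpha chain's 4 polar residues (serine, threonine, asparagine and glutamine) were all higher in STAT3koPD-1ko by mean, summing to 42.0% ± 0.456 against 41.4% ± 0.302, with a median log2 difference of 0.02 beside -0.0024 over all residues. The sums cover only residues that were frequent enough to be tested. Its other groups were close, with acidic residues at 8.95% and 9.01%, and arginine, the only basic residue tested, at 2.15% and 2.25%. Aromatic residues were at 11.2% and 11.3%, aliphatic at 12.5% and 12.7%, and glycine at 21% in both. In the beta chain polar residues summed to 27.8% ± 1.01 and 28.2% ± 0.506, and acidic to 11.8% and 11.7%. Basic residues without lysine summed to 5.68% and 5.76%, and aliphatic residues without methionine to 17.6% and 17.5%. Aromatic residues summed to 9.68% and 9.58%, and glycine to 23.0% and 23.1%. No residue of any group passed the test.

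The mean hydropathy of the central beta residues, on the Kyte-Doolittle scale where higher values are more hydrophobic, was -0.950, -0.969, -0.954 and -0.954 in STAT3ko liver 1, liver 2, gut 1 and gut 2 and -0.943, -0.922, -0.941 and -0.936 in STAT3koPD-1ko. All 4 STAT3koPD-1ko libraries were above all 4 STAT3ko libraries, by a mean of 0.0214, at the smallest p of the design (exact permutation p = 0.0556, adjusted p = 0.778 over 14 values). With each clonotype counted once the difference was -0.00180, in the opposite direction. Alpha hydropathy averaged -1.28 in STAT3koPD-1ko and -1.27 in STAT3ko. Net charge averaged -0.375 and -0.371 for alpha and -0.342 and -0.344 for beta. The mean number of inserted bases, those between the segments that no segment encodes, was 1.78 and 1.83 for alpha and 2.62 and 2.70 for beta (exact permutation p = 0.50 for both). They were counted in the representative base sequence of each clonotype.

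The use of beta J segments differed most for TRBJ1-5, 1 of 6 segments of the TRBJ1 cluster, which lies between a D segment and the first of the constant genes. TRBJ1-5 was in 1.94%, 2.11%, 1.82% and 1.22% of the beta frequency of STAT3ko liver 1, liver 2, gut 1 and gut 2, and in 1.41%, 1.37%, 1.47% and 0.924% of STAT3koPD-1ko. It was lower in STAT3koPD-1ko in all 4 pairs, and the groups overlapped only through STAT3ko gut 2. The means were 1.29% ± 0.250 and 1.77% ± 0.384 (SD, n = 4), with a log2 difference of -0.42 that did not pass (SE 0.14, limma adjusted p = 0.0939), and 0 of 12 TRBJ segments passed (percent called 0; 1 had an unadjusted p under 0.05, 8.33% of the segments). The WT libraries were at 1.92%, 1.54%, 1.64% and 1.21%, and the spleen libraries before HCT at 2.20% in STAT3ko, 1.5% in STAT3koPD-1ko and 2.36% in WT. STAT3koPD-1ko was thus below STAT3ko in spleen too, whereas WT was highest in spleen but not in liver or gut. The spleen libraries of STAT3ko and STAT3koPD-1ko, 1 each, shared 41.3% to 55.9% of their beta frequency with liver 1 of the genotype.

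Whether TRBJ1-5 passed differed between sets of libraries. Without the gut 1 libraries the log2 difference was -0.47 (limma adjusted p = 0.00144), without the gut 2 libraries -0.44 (limma adjusted p = 0.00780), and with the 8 libraries of both genotypes alone -0.42 (limma adjusted p = 0.00936), whereas without the liver 1 libraries it was -0.42 (limma adjusted p = 0.212). TRBJ1-5 also passed when STAT3ko gut 2 (-0.54, limma adjusted p = 0.00214), STAT3koPD-1ko gut 1 (-0.55, limma adjusted p = 0.00287) or WT liver 1 (-0.42, limma adjusted p = 0.0339) was left out alone, and did not pass when any of the other 9 was (-0.42 to -0.32, limma adjusted p = 0.0720 to 0.520).

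The difference in TRBJ1-5 followed the frequency of clonotypes more than their number. With each clonotype counted once, TRBJ1-5 was in 2.15%, 2.45%, 2.21% and 1.89% of the clonotypes of STAT3ko and in 2.04%, 2.20%, 2.11% and 1.67% of those of STAT3koPD-1ko. It was still lower in 4 of 4 pairs, but the log2 difference was -0.11 (limma adjusted p = 0.643). TRBV29 carried 37.2% of the TRBJ1-5 frequency. The TRBV29 TRBJ1-5 pair was at 0.845%, 0.998%, 0.611% and 0.501% in STAT3ko and at 0.455%, 0.426%, 0.406% and 0.318% in STAT3koPD-1ko, and the groups did not overlap, as for 2.45% of the beta V-J pairs in this direction.

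TRBV29 itself held 20.1%, 21.8%, 19.6% and 18.9% of the beta frequency in STAT3ko and 21.6%, 22.6%, 18.4% and 21.2% in STAT3koPD-1ko, higher in 3 of 4 pairs. Of the TRBV29 frequency, 4.2%, 4.59%, 3.12% and 2.66% used TRBJ1-5 in STAT3ko and 2.10%, 1.89%, 2.21% and 1.5% in STAT3koPD-1ko. Without TRBV29, TRBJ1-5 was at 1.37%, 1.42%, 1.5% and 0.891% against 1.22%, 1.21%, 1.31% and 0.769%, again lower in 4 of 4 pairs, with a log2 difference of -0.19 (limma adjusted p = 0.440). Of 16 V segments with at least 0.01% joined to TRBJ1-5, 12 were lower in STAT3koPD-1ko by mean.

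The TRBV29 TRBJ1-5 frequency was spread over 391 clonotypes, of which 0 were listed in all 8 libraries. STAT3ko libraries held 56, 83, 135 and 33 of them and STAT3koPD-1ko libraries 72, 84, 127 and 45. The leading clonotype of each library, whose representative joint is printed above, held 0.157%, 0.186%, 0.0551% and 0.125% in STAT3ko and 0.0595%, 0.0450%, 0.0261% and 0.0553% in STAT3koPD-1ko. All 8 leaders differ and all end in the residues NQAPLF that TRBJ1-5 encodes.

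**Figure D3:**
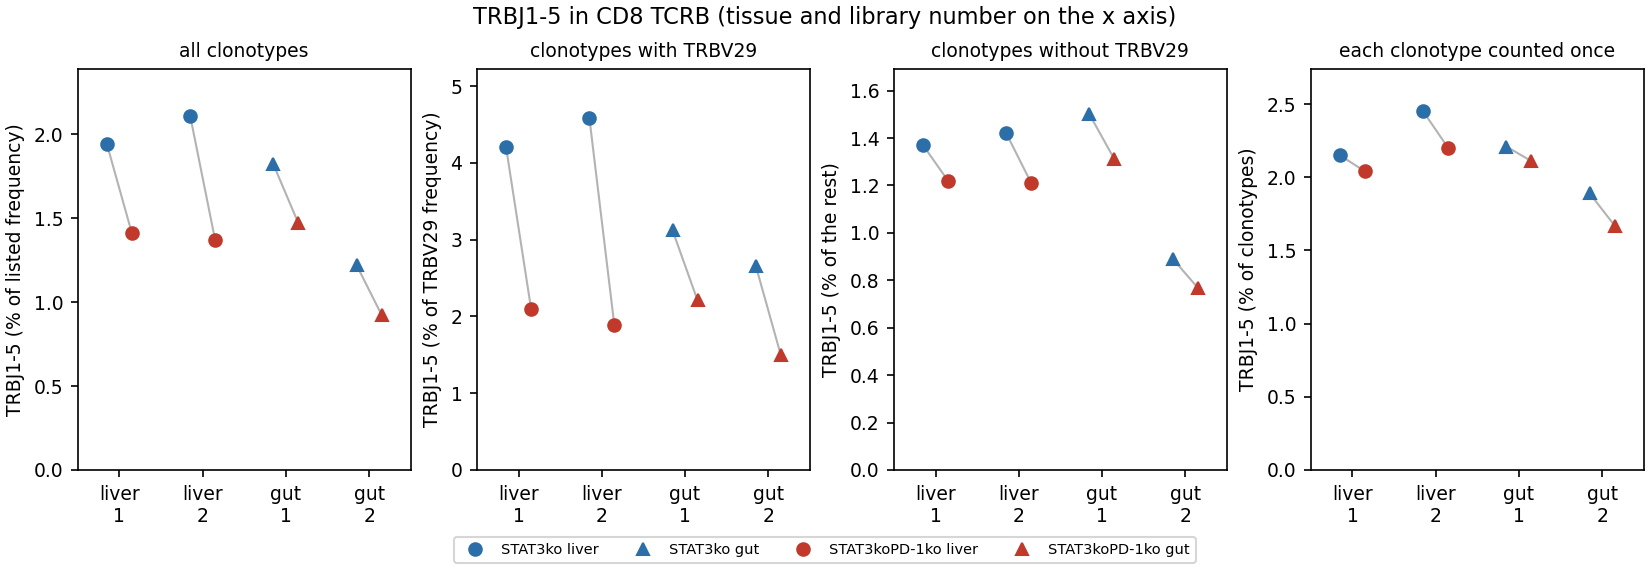
TRBJ1-5 by library (x axis: tissue and number, STAT3ko blue, STAT3koPD-1ko red, circles for liver and triangles for gut, y axes in percent), as the share of all beta frequency, of the TRBV29 frequency, of the frequency without TRBV29, and of clonotypes counted once, from left to right. Red lies below blue in all 4 pairs, from 1.94% to 1.41% in liver 1 by frequency and from 2.15% to 2.04% when clonotypes are counted once.

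The other TRBJ segments differed by -0.12 to 0.11 on the log2 scale, with limma adjusted p of 0.571 or more. TRBJ2-4 averaged 7.30% ± 0.362 in STAT3koPD-1ko and 7.98% ± 0.706 in STAT3ko, and TRBJ2-2 averaged 4.94% and 5.31%, and both were lower in 4 of 4 pairs. TRBJ1-1 averaged 13.1% ± 1.01 and 12.5% ± 0.513 and was higher in 4 of 4 pairs. TRBJ2-7, the most used segment, averaged 26.0% ± 1.83 and 25.1% ± 0.823, and TRBJ2-1 16.3% and 15.8%. TRBJ2-3 averaged 7.47% and 6.91%, TRBJ2-5 8.58% and 9.07%, TRBJ1-6 2.65% and 2.93%, TRBJ1-4 4.56% and 4.71%, TRBJ1-2 4.33% and 4.38%, and TRBJ1-3 3.52% and 3.54%. The direction of TRBJ1-1, TRBJ1-2, TRBJ1-3, TRBJ1-4, TRBJ2-1 and TRBJ2-7 turned under another scaling or clonotype set. Summed by cluster, the 6 TRBJ1 segments held 29.5% ± 1.36 and 29.8% ± 0.933 and the 6 TRBJ2 segments 70.5% ± 1.36 and 70.2% ± 0.933, with 1 of 6 and 3 of 6 segments higher.

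**Figure D4:**
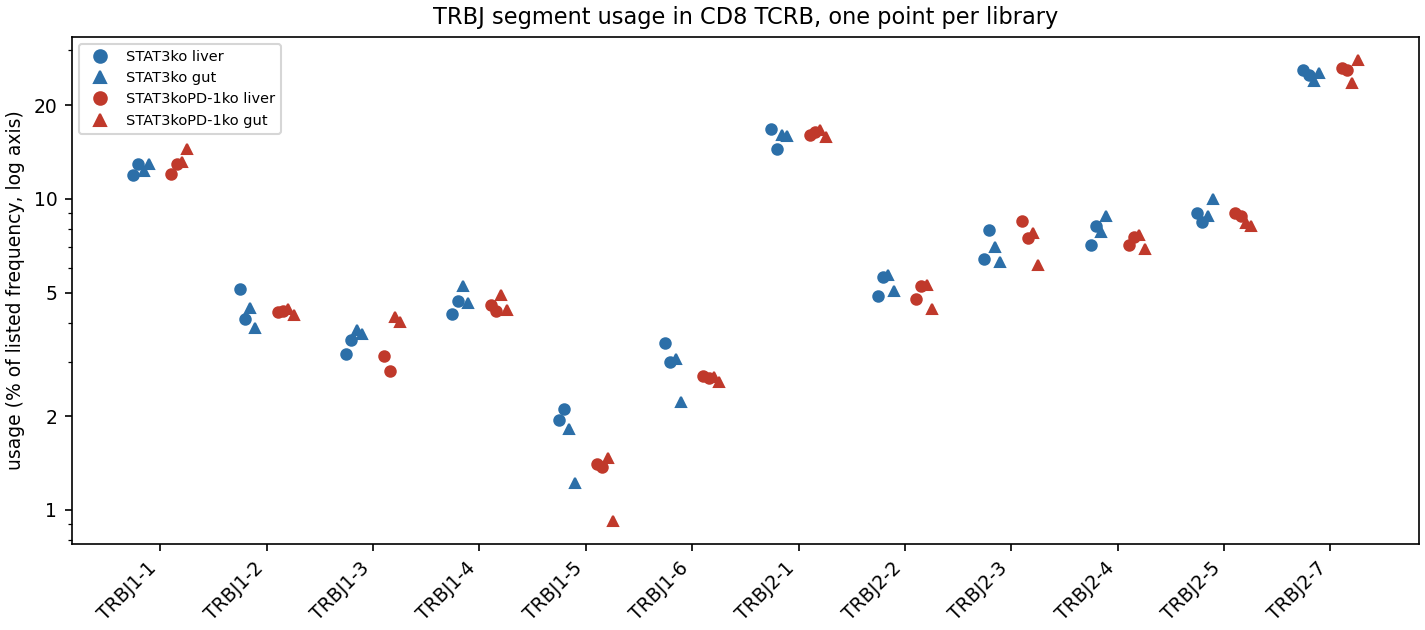
Share of the CD8 beta frequency (log y axis, percent) that used each TRBJ segment (x axis), with points for the libraries of STAT3ko (blue) and STAT3koPD-1ko (red), circles for liver and triangles for gut. TRBJ2-7 leads in both genotypes (means 25.1% and 26.0%) and TRBJ1-5 is the least used (1.77% and 1.29%).

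Of 41 alpha J segments tested, 0 passed (percent called 0), 3 had an unadjusted p under 0.05 (7.32%), and 1 had groups that did not overlap (2.44% of those tested). This was TRAJ30, which was in 5.26%, 6.20%, 6.31% and 6.00% of the alpha frequency of STAT3ko liver 1, liver 2, gut 1 and gut 2 and in 4.67%, 5.14%, 5.21% and 4.87% of STAT3koPD-1ko. The log2 difference was -0.25 (SE 0.09, limma adjusted p = 0.387), and the WT libraries were at 5.37%, 4.85%, 4.97% and 5.61%. Of the 13 V-J pairs with TRAJ30 that were tested, 7 were higher and 6 lower, with a median log2 difference of 0.06. Their sum was nevertheless lower in STAT3koPD-1ko, at 3.56% ± 0.296 against 4.38% ± 0.381, with libraries at 3.13% to 3.77% against 3.86% to 4.75%.

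TRAJ4 averaged 2.11% ± 0.538 in STAT3koPD-1ko and 1.58% ± 0.147 in STAT3ko (0.36, limma adjusted p = 0.387). It was at 1.49% and 1.87% against 1.6% and 1.64% in the liver, and at 2.72% and 2.34% against 1.71% and 1.37% in the gut. The TRAV16N TRAJ4 clonotype that led STAT3koPD-1ko gut 1, held 0.667% of that library. The genotype difference was 0.64 larger in gut than in liver on the log2 scale (unadjusted p = 0.00933, limma adjusted p = 0.383). Without STAT3koPD-1ko liver 1 the TRAJ4 difference was 0.51 and passed (limma adjusted p = 0.0475), but without STAT3koPD-1ko gut 1 it was 0.24 (limma adjusted p = 0.396), and with each clonotype counted once 0.05 (limma adjusted p = 0.860). TRAJ47 averaged 1.64% ± 0.230 and 1.92% ± 0.161 and was lower in 4 of 4 pairs (-0.22, limma adjusted p = 0.423).

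By position in the J array, which alpha rearrangement uses from the 5' end nearest V towards the 3' end, TRAJ segments numbered 41 and above summed to 22.1% ± 0.521 in STAT3koPD-1ko and 21.5% ± 1.30 in STAT3ko. Those numbered 21 to 40 summed to 54.0% and 53.8%, and those up to 20 to 23.1% and 23.7%. Of 13, 16 and 12 segments in these groups, 9, 10 and 4 were higher, with median log2 differences of 0.04, 0.04 and -0.04 beside 0.01 over all segments.

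Of 187 alpha V-J pairs tested, which held 50.8% to 55.7% of the frequency, 0 passed (percent called 0), 16 had an unadjusted p under 0.05 (8.56%), 9 higher and 7 lower, and 7 had groups that did not overlap (3.74%), 3 higher and 4 lower (2.14%). TRAV6N-7 TRAJ23 was at 0.167%, 0.219%, 0.138% and 0.163% in STAT3ko liver 1, liver 2, gut 1 and gut 2 and at 0.0280%, 0.0366%, 0.0946% and 0.0803% in STAT3koPD-1ko. The groups did not overlap, and the log2 difference was -1.34 (SE 0.29, limma adjusted p = 0.0833). With each clonotype counted once, the difference was -0.76 and passed (limma adjusted p = 0.000605), as did -1.53 without STAT3koPD-1ko gut 1 (limma adjusted p = 0.0497). TRAV6N-7 is 1 of 3 copies of a duplicated V segment, between which short reads can be split. The 3 copies with TRAJ23 summed to 0.233%, 0.280%, 0.194% and 0.232% against 0.0685%, 0.108%, 0.172% and 0.122%, which did not overlap either.

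The other alpha pairs depended more on the copy. TRAV3D-3 TRAJ26 averaged 0.189% ± 0.0736 in STAT3koPD-1ko and 0.0731% ± 0.0176 in STAT3ko (1.12, limma adjusted p = 0.155), but summed with its copy TRAV3-3 the means were 0.329% and 0.325%. TRAV10N TRAJ22 averaged 0.121% ± 0.0322 and 0.236% ± 0.0564 (-0.86, limma adjusted p = 0.160), and over its 3 copies 0.305% ± 0.0601 and 0.450% ± 0.102.

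Of 163 beta V-J pairs, which held 95.6% to 97.4% of the frequency, 0 passed (percent called 0), 16 had an unadjusted p under 0.05 (9.82%), 8 in each direction, and 5 had groups that did not overlap (3.07%), 1 higher (0.613%) and 4 lower (2.45%). The TRBV29 TRBJ1-5 pair had the lowest p, with means of 0.401% ± 0.0592 in STAT3koPD-1ko and 0.739% ± 0.225 in STAT3ko (-0.81, SE 0.23, limma adjusted p = 0.270). TRBV12-2 TRBJ2-3 was at 0.321%, 0.400%, 0.562% and 0.540% in STAT3ko and at 0.558%, 0.597%, 0.827% and 1.21% in STAT3koPD-1ko, higher in 4 of 4 pairs (0.75, limma adjusted p = 0.270). TRBV2 TRBJ2-7 averaged 0.154% ± 0.0472 and 0.0870% ± 0.0125 (0.67, limma adjusted p = 0.270). Counted once per clonotype, these 3 pairs differed by -0.11, -0.01 and -0.03, with a limma adjusted p of 0.866 for TRBV29 TRBJ1-5. The 3 tested pairs with TRBJ1-5 were all lower, with a median of -0.43 beside -0.01 over all pairs, and summed to 0.624% ± 0.106 against 1.04% ± 0.215.

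The differences that passed were in public clonotypes, those listed in at least 8 of the 12 day 6 libraries of the 3 genotypes. Of 5028 alpha clonotypes tested, 2 passed, both lower in STAT3koPD-1ko (0.0398%), and 501 (9.96%) had an unadjusted p under 0.05, 302 higher and 199 lower. The median log2 difference over all 5028 was 0.15, so the whole set lay higher in STAT3koPD-1ko. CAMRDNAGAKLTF (TRAV6-3 TRAJ39), whose joint needs no inserted base, was at 0.0675%, 0.0170%, 0.0680% and 0.0857% in STAT3ko liver 1, liver 2, gut 1 and gut 2. In STAT3koPD-1ko it was at 0.000344% in gut 1 and listed at 0 in the other 3 libraries. It was listed in 8 of the 12 day 6 libraries, so it met the listing rule only because all 4 STAT3ko libraries held it. The other public clonotypes named below likewise met the rule only with the libraries of the genotype in which they were higher. The rule is therefore not independent of these differences. The WT libraries were at 0.000548%, 0.00445%, 0.00269% and 0%, and the spleen libraries before HCT at 0.0648% in STAT3ko, 0.00261% in STAT3koPD-1ko and 0.00316% in WT. STAT3ko was thus above both other genotypes after HCT and in the spleen, where each genotype had 1 library. The STAT3ko spleen library shared 46.6% of its alpha frequency with STAT3ko liver 1, so it is not independent of the liver values.

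The difference in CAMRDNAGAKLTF was -5.60 on the log2(percent + 0.001) scale (SE 0.86, limma adjusted p = 0.00416), a size that the pseudocount sets, at -8.46 with a pseudocount 10 times smaller and -3.49 with 1 that was 5 times larger. The call did not hold with the smaller pseudocount (limma adjusted p = 0.0667), nor without the liver 1 libraries (limma adjusted p = 0.118), the gut 1 libraries (limma adjusted p = 0.230) or the gut 2 libraries (limma adjusted p = 0.136). Without these libraries the log2 differences of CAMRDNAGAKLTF were -5.43, -5.57 and -5.32.

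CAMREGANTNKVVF (TRAV16N TRAJ34) was at 0.0121%, 0.0668%, 0.0521% and 0.0114% in STAT3ko, and in STAT3koPD-1ko at 0.00103% in gut 1 and listed at 0 in the other 3 libraries (-4.53, SE 0.86, limma adjusted p = 0.0481). The WT libraries were at 0.00575%, 0.00287%, 0.00539% and 0.00167%, and the spleen libraries before HCT at 0.00324% in STAT3ko, 0.00208% in STAT3koPD-1ko and 0% in WT. This call was at the threshold and was lost in most alternatives, including without the gut 1 libraries (-4.47, limma adjusted p = 0.514) and when any 1 library other than STAT3ko liver 1 or STAT3ko gut 2 was left out (-4.82 to -4.05, limma adjusted p = 0.0603 to 0.251). The TRAV16N TRAJ22 clonotype with 5 bases outside germline went the other way and did not pass, at 0.0105%, 0.0211%, 0.0319% and 0.0303% in STAT3koPD-1ko and at 0.00234% in STAT3ko liver 2 and listed at 0 in the other STAT3ko libraries (4.07, SE 0.86, limma adjusted p = 0.113). In spleen before HCT it was at 0.00365% in STAT3koPD-1ko and listed at 0 in STAT3ko.

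Of 2538 public beta clonotypes tested by limma, 0 passed (percent called 0), and 244 (9.61%) had an unadjusted p under 0.05, 154 higher and 90 lower. The median log2 difference over all 2538 was 0.23. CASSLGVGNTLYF (TRBV16 TRBJ1-3) was at 0.0492%, 0.0429%, 0.0225% and 0.0819% in STAT3ko and at 0%, 0.00181%, 0% and 0.00241% in STAT3koPD-1ko (-4.69, limma adjusted p = 0.130). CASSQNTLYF (TRBV14 TRBJ2-4) was at 0.0123%, 0.0308%, 0.0533% and 0.0102% in STAT3koPD-1ko and at 0%, 0%, 0% and 0.000665% in STAT3ko (4.31, limma adjusted p = 0.130). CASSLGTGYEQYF (TRBV29 TRBJ2-7) averaged 0.00459% ± 0.00566 and 0.0664% ± 0.0343 (-4.10, limma adjusted p = 0.136), and the spleen library of STAT3ko before HCT held it at 0.116% and that of STAT3koPD-1ko at 0.000777%. Groups that did not overlap were found for 181 higher and 82 lower alpha clonotypes (5.23%) and for 102 higher and 45 lower beta clonotypes (5.79%).

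**Figure D5:**
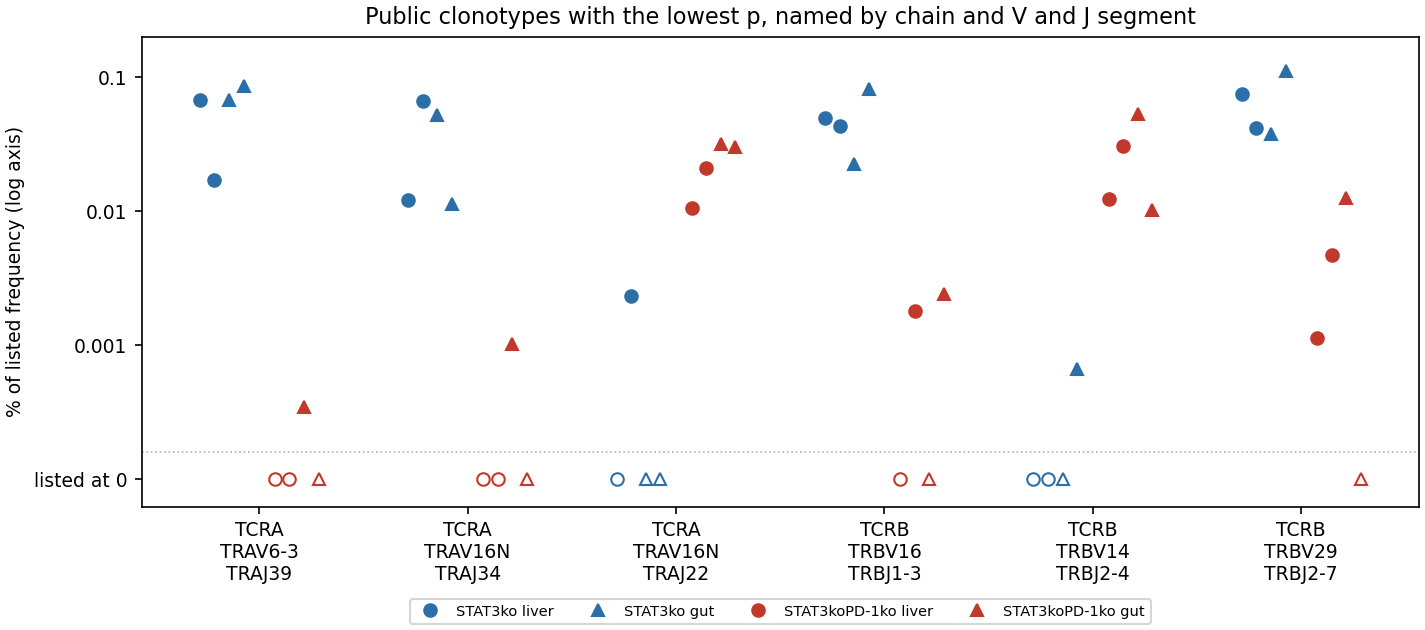
Percent of listed frequency (log y axis, with open symbols in a strip below it for libraries listed at 0) of the 6 public clonotypes with the lowest p, 3 for each chain and named on the x axis by chain, V and J segment, in each library of STAT3ko (blue) and STAT3koPD-1ko (red), circles for liver and triangles for gut. The groups do not overlap for any of the 6, and TRAV6-3 TRAJ39 (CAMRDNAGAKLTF) is listed at 0 in 3 STAT3koPD-1ko libraries against 0.0170% to 0.0857% in STAT3ko.

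Differences between the genotypes were compared between gut and liver for every class of feature. By a limma interaction term 0 features passed in J usage, V-J pairs, length classes, central residues or public clonotypes of either chain. The interaction had an unadjusted p under 0.05 for 1 alpha J segment, TRAJ4 (2.44%), for 7 alpha (3.74%) and 8 beta (4.91%) V-J pairs, for 1 beta length class, 10 residues (12.5%), for 1 central alpha residue, aspartate (5.88%), and for 91 alpha (1.81%) and 45 beta (1.77%) clonotypes.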

How the data were processed

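Donor CD8 T cells were sorted, TCR alpha and beta transcripts were amplified with the SMARTer mouse TCR kit and sequenced on a MiSeq, and the authors called clonotypes with MiXCR and joined libraries with VDJtools. The submitters' processing notes name mm10. The deposited values are each clonotype's fraction of the reads of a library, formed before the join, which lists clonotypes found in at least 2 libraries. No counts were used, so depth is unknown, and counting error and limits of detection could not be computed. The pooled columns (the mean frequency, the number of libraries and the join's own statistics) were not used as measurements, and 0 per-sample columns were left unmapped.

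Fractions were divided by the listed share of a library and expressed as percent. J usage, V-J pairs, CDR3 lengths, central residues and public clonotypes were tested with limma 3.58.1 (R 4.3.3) on log2(percent + pseudocount), with the tissue as covariate, over the 12 day 6 libraries including WT, and adjusted by Benjamini-Hochberg over all features tested, with a call at adjusted p below 0.05. Pseudocounts were 0.1 (J, length, residues), 0.02 (V-J) and 0.001 (public clonotypes), and features needed a mean of 0.5% (J, residues), 0.1% (V-J) or 1% (length), or a listing in 8 of 12 libraries. CDR3 measures used sequences from C to F or W, and central residues needed a length of at least 9. Single values were tested by exact two-sided permutation within tissue. Other steps used Python 3.11.15, numpy 2.4.6 and pandas 2.3.3. The scripts were tested on simulated data.

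Groups came from the labels. Named features were all TRBJ segments, those past the threshold or else the 3 with the lowest p, the leading clonotype of each library and the 5 most frequent of those listed in all 8. The members and lists were chosen with earlier results of these data known. Alternatives were the pseudocount, the filters, the 8 libraries alone, a replicate block, clonotypes counted once, no division by the listed share, clonotypes of at least 3 libraries or at 0 in spleen, fewer residues dropped, and each library or the liver 1 or gut 2 libraries left out. Leaving out the gut 1 libraries, and TRBV29, was chosen after seeing the data. Where a library was left out, the lone library of its genotype and tissue was assumed to vary like the others. V and J segments were matched by name to GENCODE M21 (GRCm38), which held 134 of 135 V and 55 of 55 J segments.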

Additional observations from a re-analysis of the deposited data

Results flagged for a closer look

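In 7 of 106 groups of 4 libraries, 1 library lay far from the other 3 by Dixon's test, which chance gives in about 1 of 20 groups. STAT3koPD-1ko gut 1 was the only STAT3koPD-1ko library with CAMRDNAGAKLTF, at 0.000344%, and with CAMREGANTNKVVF, at 0.00103%. STAT3ko liver 2 was the only STAT3ko library with the TRAV16N TRAJ22 clonotype that has 5 bases outside germline, at 0.00234%, and STAT3ko gut 2 the only 1 with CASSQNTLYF, at 0.000665%. In these 4 groups the other libraries were listed at 0, so that any value above it stands apart.

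The other 3 were gut 2 libraries of the beta chain, in which 53.2% to 58.0% of the frequency was listed. STAT3koPD-1ko gut 2 had a beta clonality of 0.108, against 0.0810 to 0.0837 in the other STAT3koPD-1ko libraries, and a mean beta CDR3 length of 13.27 residues, against 13.47 to 13.50. STAT3ko gut 2 had a mean of 2.15 inserted bases in the beta chain, against 2.84 to 2.93. The part of the lower listed share in these values was not tested.

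For 2 of the reported values, both STAT3koPD-1ko libraries lay below both STAT3ko libraries in liver and above both in gut. With 2 libraries against 2 in each tissue chance can also give this order, and how often it would among the reported values was not tested. Neither difference between the tissues passed after adjustment. For alpha clonality the genotype difference was -0.0181 in liver and 0.0125 in gut, a difference of 0.0307 (exact permutation p = 0.0556). TRBJ1-3 was at 3.13% and 2.79% in STAT3koPD-1ko liver against 3.17% and 3.52% in STAT3ko liver, and at 4.16% and 4.02% against 3.78% and 3.68% in gut, so that the genotype difference was 0.30 larger in gut than in liver on the log2 scale (unadjusted p = 0.0757, limma adjusted p = 0.811).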

How the results depend on the processing

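Of 320 values of the 34 comparisons under the alternatives, 291 kept their direction and side of the threshold or stayed within 1.5 times the count, as did 419 of 459 values of the 39 named features. Of beta J segments, 0 passed in the main setting, 1 with a pseudocount 5 times larger, with the replicate block, with the 8 libraries alone, and without the gut 2 or the gut 1 libraries, and 2 with clonotypes at 0 in spleen, where TRBJ1-3 was at 0.38 (limma adjusted p = 0.0461) beside TRBJ1-5. Of alpha V-J pairs 1 passed with no filter and 1 with clonotypes counted once. Of central alpha residues 1 passed with clonotypes at 0 in spleen. Of public alpha clonotypes, 2 passed in the main setting, 0 with a pseudocount 10 times smaller, with a listing in all 12 libraries, and without the liver 1, gut 2 or gut 1 libraries, and 1 with a pseudocount 5 times larger, a listing in 6 of 12, the 8 libraries alone, or no division by the listed share. Of interactions with tissue, 3 beta V-J pairs, 1 alpha length class and 1 central alpha residue passed without the gut 1 libraries. When 1 library was left out, the calls ranged from 0 to 1 for alpha J (1 without STAT3koPD-1ko liver 1), beta J, alpha V-J (1 without STAT3koPD-1ko gut 1), beta V-J by tissue (1 without STAT3ko gut 1) and alpha length by tissue (1 without STAT3koPD-1ko gut 1), from 1 to 2 for public alpha and from 0 to 2 for public beta clonotypes (2 without STAT3ko gut 2).

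Directions turned as follows, and the cause was not tested. With clonotypes counted once, TRBJ1-2 was at 0.01, TRBJ1-3 at 0.14, TRBJ1-4 at 0.08, TRBJ2-7 at -0.04, TRBV12-2 TRBJ2-3 at -0.01, TRBV2 TRBJ2-7 at -0.03, alpha length 15 at 0.02, alpha methionine at 0.02, alpha inserted bases at 0.000381, beta hydropathy at -0.00180 and beta charge at -0.00401. With clonotypes at 0 in spleen, TRBJ1-2 was at 0.03, TRAV10N TRAJ22 at 0.21, alpha length 15 at 0.03, alpha methionine at 0.09, alpha hydropathy at 0.00854 and beta charge at -0.0123. Without division by the listed share, TRBJ1-1 was at -0.02, TRBJ2-1 and TRBJ2-7 at -0.05 and beta length 14 at -0.07. TRBJ1-2 was at 0.05 with clonotypes of at least 3 libraries and 0.07 without the liver 1 libraries, TRBJ1-3 at 0.06 without TRBV29, alpha hydropathy at 0.00995 without the gut 1 libraries, alpha charge at 0.00316 without the gut 2 libraries, and beta charge at -0.0228 with 3 residues dropped at each end. Leaving out 1 library gave -0.07 to 0.07 for TRBJ1-2, -0.08 to 0.06 for TRBJ1-3, -0.01 to 0.07 for TRBJ2-1, -0.04 to 0.52 and -0.03 to 0.92 for the alpha and beta effective number, -1.92 to 1.12 and -4.83 to 1.18 for the top 100 (the turned values without STAT3ko gut 2 or STAT3koPD-1ko gut 1), -0.0156 to 0.00663 for alpha hydropathy, -0.0126 to 0.00538 and -0.00482 to 0.00816 for charge, and -0.136 to 0.0429 and -0.255 to 0.0997 for inserted bases.

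Libraries with the same tissue and number deviated together in both tissues in 3 of 10 families of features, with correlations in liver and gut of 0.540 and 0.689 for alpha length, 0.278 and 0.948 for beta length and 0.580 and 0.782 for central beta residues. They did not in the other families, among them alpha J (-0.0560 and 0.109) and beta J (-0.149 and 0.634), so the numbers were not taken to pair libraries. With the replicate block, TRBJ1-5 was at -0.42 and passed (limma adjusted p = 0.00111), and it changed no other call. The unknown depth, the listing of shared clonotypes only and 2 libraries of 3 pooled mice per genotype and tissue limit what could be detected.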

Other observations

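TRBJ1-5 in donor CD4 T cells, sorted from recipients of the same donor groups, stood in the opposite order to the CD8 T cells. It was in 1.62%, 1.83%, 1.34% and 0.885% of the CD4 beta frequency of STAT3ko liver 1, liver 2, gut 1 and gut 2 and in 1.67%, 2.13%, 1.5% and 1.23% of STAT3koPD-1ko, higher in 4 of 4 pairs. The difference between CD4 and CD8 T cells was not tested.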
